A study of Homo sapiens with 6 samples.

Results

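The MYC, MAX and MXD network was followed in RNA sequencing counts of MOLM-13, a cell line from human acute myeloid leukaemia of monocytic type with the fusion gene KMT2A-MLLT3 and an internal duplication in FLT3. The members were the 10 genes whose symbol in the table was MYC, MYCN, MYCL, MAX, MXD1, MXD3, MXD4, MXI1, MNT or MLX, out of 58735 genes in all. Of these 10 genes 9 were among the 13822 genes with enough counts to be tested. The cells were exposed to the compound 8p at 3.5 nM (n = 3) or left untreated as controls (n = 3), each for 48 hours, and both groups had the label WT as genotype. The submitters describe 8p as a synthetic inhibitor of RET, a receptor tyrosine kinase, and of CDK kinases, with CDK8 named in the sample labels, and they used it below its stated IC50 of 7 nM. All libraries came from this single line at a single time, and no solvent is named for the control cells, so solvent and compound cannot be told apart.

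Proteins of this network are basic helix-loop-helix leucine zipper factors that bind the DNA hexamer CACGTG, the E-box, as dimers. MAX is the shared partner. Dimers of MAX with MYC, MYCN or MYCL raise transcription of genes for ribosome production, metabolism and the cell cycle. Dimers of MAX with MXD1, MXD3, MXD4, MXI1 or MNT bring in the SIN3 and histone deacetylase corepressor. MLX, a relative of MAX, pairs with MondoA (MLXIP) and ChREBP (MLXIPL), which respond to glucose, and with some MXD proteins. In myeloid cells MYC is known to fall and MXD1 to rise as cells stop dividing and mature.

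Library totals ran from 14972069 to 16210861 counts with 8p and from 18834611 to 23485628 counts in controls. Mitochondrially encoded genes took 6.42% to 10% of counts in the 8p libraries and 1.64% to 1.91% in the control libraries. With these genes left out, each member call was the same. 8p replicate 2 and control replicate 3 each stood apart from the other libraries of their group. The chi-square statistic per degree of freedom between libraries was 21.4 and 21.2 for pairs with 8p replicate 2 and 3.03 for the other 8p pair. It was 10.1 and 10.9 for pairs with control replicate 3 and 3.92 for the other control pair. All 11 myeloid markers examined had counts, among them the tyrosine phosphatase PTPRC and the myeloid transcription factor SPI1. Of these 8 rose and 2, CD33 and MPO, fell. The 11 markers summed to 5220 to 5813 CPM with 8p and 2073 to 2204 CPM in controls. A large part of that sum was the lysozyme gene LYZ, at 3308 to 3973 CPM with 8p and 972 to 1083 CPM in controls. The part of this marker shift in the results was not tested. Defining markers of B cells, fibroblasts and erythroid cells (among them MS4A1, CD79A, CD79B, PAX5, COL1A2, COL3A1, DCN, LUM, HBB, HBA1 and ALAS2) were below 1 CPM in every library. Among markers of T and NK cells, epithelium and endothelium, 8 were below 1 CPM in every library. The others, CD3D, NCAM1, KRT8 and PECAM1, reached 1 CPM in at least 1 library. PECAM1, from the endothelial list, was high, at 571, 510 and 578 CPM with 8p and 113, 111 and 108 CPM in controls. It was called higher, as were NCAM1 and KRT8, and CD3D was called lower.

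Levels of a gene are given as CPM, counts scaled to library size with TMM factors. Changes are log2 fold changes of 8p over control from edgeR's quasi-likelihood F test, two-sided, with Benjamini-Hochberg adjustment over the 13822 genes tested and a threshold of 0.05. After exposure to 8p the network had less MYC and more MXD1, MYCL and MXD4 transcript. Of the 9 tested members 3 rose, 5 fell and MNT did not pass. Of all tested genes 74.7% passed, 37.9% higher and 36.9% lower, so the share of members that passed does not set the network apart. The median log2 fold change was −0.24 over the 9 tested members and 0.03 over all tested genes. In bulk RNA, fewer cells with a transcript and less of it in each cell cannot be told apart, and each fold change is set against all other transcripts.

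MYC (ENSG00000136997; GRCh38 chromosome 8, 127735434 to 127741434, plus strand), which drives growth and division, was the most abundant member by counts. Its levels were 145, 133 and 146 CPM in 8p replicates 1 to 3, against 735, 747 and 687 CPM in control replicates 1 to 3. Each 8p library lay far below each control library, and the spread within a group was small beside the gap. The means were 142 ± 7.37 CPM with 8p and 723 ± 31.8 CPM in controls (SD, n = 3 each), a 5.10-fold lower level with 8p (log2 fold change −2.35, SE 0.07, edgeR adjusted p = 3.41e-13). Among tested genes 8.83% had a larger change in either direction. The log2 fold change was −2.34 without 8p replicate 2 and −2.41 without control replicate 3.

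The paralogs of MYC behaved differently from it. MYCL (chromosome 1, 39895426 to 39902256, minus strand), a paralog with a narrower range of tissues, stood at 62.2, 61.0 and 62.7 CPM with 8p and at 21.8, 23.6 and 25.5 CPM in controls. The groups did not overlap, and MYCL rose 2.62-fold (log2 fold change 1.39, SE 0.09, edgeR adjusted p = 7.45e-10). MYCN (chromosome 2, 15940564 to 15947007, plus strand), the paralog best known from neuroblastoma, had no count in any of the 6 libraries, which allows up to 0.0273 CPM by a floor of 3 counts over all libraries. The antisense gene MYCNOS and the pseudogene MYCLP1 also had no count, so no reads were assigned to that copy of MYCL. Such floors cover counting error only.

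MAX (chromosome 14, 65006174 to 65102695, minus strand), the common partner, differed little. It stood at 57.7, 58.9 and 57.7 CPM with 8p and at 71.5, 69.8 and 74.6 CPM in controls. The 8p libraries were all below the controls, a log2 fold change of −0.31 (SE 0.07, edgeR adjusted p = 0.00127). The fall of MAX depended on the library scaling. With upper quartile factors, which moved the median of all tested genes by 0.19, its log2 fold change was −0.12 (edgeR adjusted p = 0.139), and over its alternatives the adjusted p lay between 7.39e-06 and 1. Relative to the median of all tested genes it was −0.34 under both scalings. New factors move all genes nearly alike, so this sameness follows from the subtraction and says nothing about the fall of MAX.

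**Figure D1:**
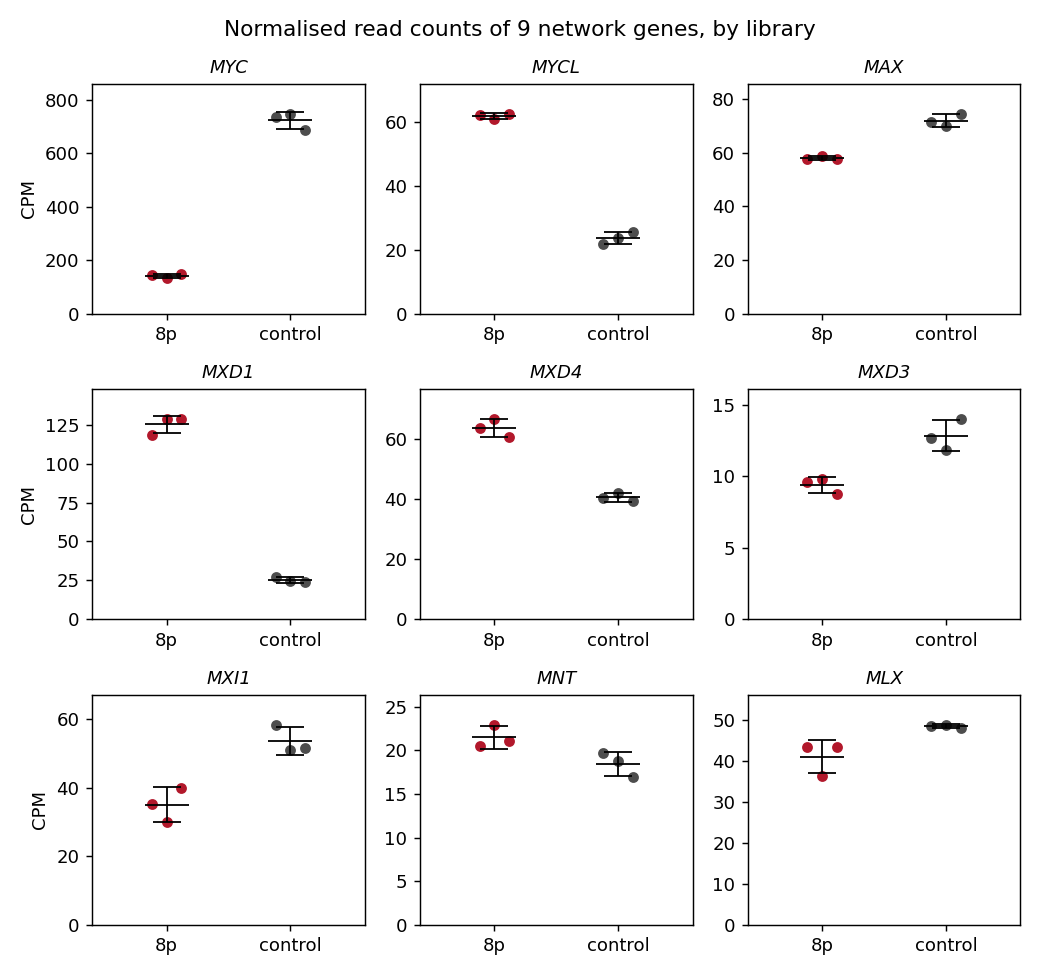
CPM of the 9 tested network genes in each library, with 8p on the left and control on the right of each panel, every y axis from 0. Points are libraries and bars are mean ± SD (n = 3). The 8p points lie below the control points for MYC, MAX, MXD3, MXI1 and MLX and above them for MYCL, MXD1, MXD4 and MNT.

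Partners of MAX that repress transcription moved in different directions. MXD1 (ENSG00000059728; chromosome 2, 69897688 to 69942945, plus strand), the founding MXD repressor, stood at 119, 128 and 129 CPM with 8p, against 27.2, 24.9 and 23.8 CPM in controls. Every 8p library was above every control library. The means were 125 ± 5.71 CPM with 8p and 25.3 ± 1.77 CPM in controls (SD, n = 3 each), a 4.94-fold rise (log2 fold change 2.31, SE 0.08, edgeR adjusted p = 1.47e-12). A larger change in either direction was found for 9.33% of tested genes. MXD1 shares 237 exon bases on its own strand with SNRNP27, a splicing factor gene. SNRNP27 had 770 counts over the 8p libraries and 1652 over the control libraries, while MXD1 had 5833 counts with 8p and 1615 in controls.

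MXD4 (chromosome 4, 2247432 to 2262294, minus strand), another MXD repressor, stood at 63.4, 66.5 and 60.6 CPM with 8p and at 40.4, 41.9 and 39.2 CPM in controls. It rose 1.57-fold with no overlap between groups (log2 fold change 0.65, SE 0.08, edgeR adjusted p = 2.02e-06). MXI1 (chromosome 10, 110207605 to 110287365, plus strand), the MXD family member first found as a MAX interactor, went the other way. It stood at 35.1, 30.0 and 40.0 CPM with 8p and at 58.3, 51.0 and 51.6 CPM in controls. Its log2 fold change was −0.62 (SE 0.10, edgeR adjusted p = 6.32e-05), and 8p replicates 2 and 3 lay farther apart than any pair of control libraries. MXI1 fell by 0.55 on the log2 scale without 8p replicate 2.

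MXD3 (chromosome 5, 177301461 to 177312757, minus strand), the MXD member tied to S phase in mouse cells, stood at 9.58, 9.77 and 8.77 CPM with 8p and at 12.6, 11.8 and 14.0 CPM in controls. Its log2 fold change was −0.45 (SE 0.14, edgeR adjusted p = 0.00725). With upper quartile factors it was −0.26 and did not pass (edgeR adjusted p = 0.0902, between 6.35e-04 and 0.864 over its alternatives). MXD3 counts are uncertain for another reason: its exons share 1158 bases with PRELID1 on the other strand and 926 bases with RAB24 on the same strand. Set against the counts of MXD3 over the 6 libraries, those of PRELID1 came to 973% and those of RAB24 to 97.7%. The strand setting used in counting was not stated.

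MNT (chromosome 17, 2384060 to 2401118, minus strand), a repressor present in dividing and resting cells alike, stood at 20.50, 22.95 and 21.05 CPM with 8p and at 19.7, 18.7 and 17.0 CPM in controls. The groups did not overlap, as for 77.0% of all tested genes, but the log2 fold change of 0.22 (SE 0.11) did not pass (edgeR adjusted p = 0.0823). MNT did pass with upper quartile factors (0.41, edgeR adjusted p = 0.00331), with protein-coding genes alone (adjusted p = 0.0194) and with a filter of 1 CPM in 3 libraries (adjusted p = 0.0469). Its adjusted p lay between 0.00331 and 1 over the alternatives, and its log2 fold change was 0.14 without 8p replicate 2 and 0.14 without control replicate 3. MLX (chromosome 17, 42567068 to 42573239, plus strand) stood at 43.5, 36.4 and 43.5 CPM with 8p and at 48.7, 49.0 and 48.0 CPM in controls. Its 3 control values were within 1 CPM of each other, and 8p replicate 2 was the lowest library. The log2 fold change of MLX was −0.24 (SE 0.09, edgeR adjusted p = 0.0218). It was −0.05 with upper quartile factors (adjusted p = 0.595) and −0.16 with protein-coding genes alone (adjusted p = 0.117), and its adjusted p lay between 7.02e-04 and 1 over the alternatives. PSMC3IP overlaps MLX on the other strand, and its own counts came to 10.3% of those of MLX.

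**Figure D2:**
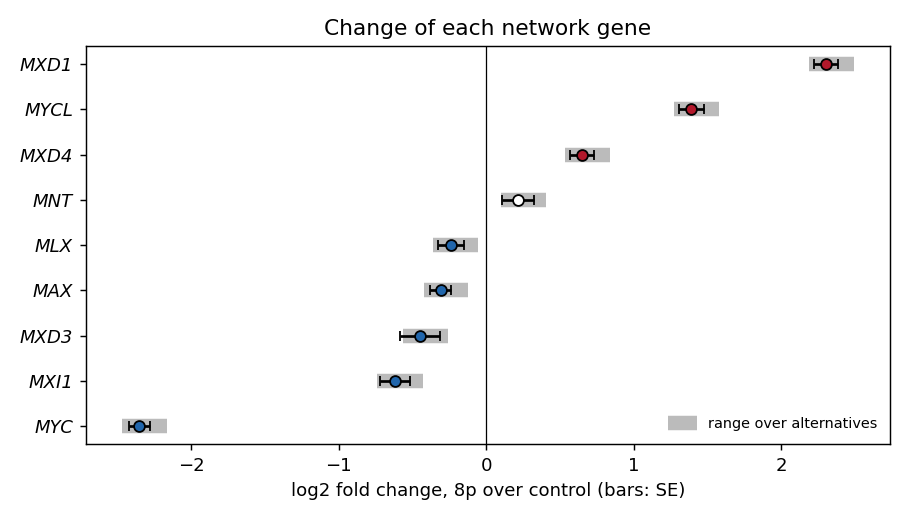
Log2 fold change of 8p over control for the 9 tested members, with SE bars from the edgeR fit of all 6 libraries, red for genes that rose, blue for genes that fell and white for MNT, which did not pass. Grey bands span the lowest and highest value over the alternative analyses. The bands of MXD1 (2.19 to 2.49) and MYC (−2.47 to −2.16) lie far from 0, and those of MLX, MNT and MAX come close to it.

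Each of the 8 member calls kept its direction and passed when any 1 of the 6 libraries was left out. The highest adjusted p was then 0.0443, for MLX, and 0.0237, for MXD3. The range with 1 library left out was −2.41 to −2.34 for MYC, 2.24 to 2.34 for MXD1, 1.31 to 1.42 for MYCL and 0.58 to 0.66 for MXD4. The calls of MYC, MYCL and MXD1 held in all 18 alternatives, and those of MXD4 and MXI1 in 17, lost where a change of over 1.5-fold was required.

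Levels of different genes were compared as TPM, which divides counts by the exon length given in the table. In 8p libraries MYC led at 140 ± 3.63 TPM, followed by MXD1 at 58.6 ± 6.46 TPM, MAX at 39.0 ± 3.59 TPM and MYCL at 36.3 ± 2.40 TPM (SD, n = 3). The ranges of MAX and MYCL overlapped. MLX (28.5 TPM), MXD4 (26.8 TPM) and MXI1 (22.4 TPM) came next, with overlap between each and its neighbour in that order. MNT (7.34 TPM) and MXD3 (5.41 TPM) were the lowest members with counts. The order below MXD1 depends on the lengths: in CPM, MXD4 (63.5) and MYCL (61.9) stood above MAX (58.1) with 8p.

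In control libraries MYC led by a wider margin, at 806 ± 59.0 TPM, ahead of MAX at 54.3 ± 0.956 TPM, MXI1 at 39.0 ± 3.83 TPM and MLX at 38.1 ± 1.53 TPM (SD, n = 3). Only MXI1 and MLX overlapped among neighbours in the control order. MXD4 (19.2 TPM), MYCL (15.6 TPM) and MXD1 (13.3 TPM) followed, then MXD3 (8.30 TPM) and MNT (7.08 TPM). By TPM, MXD1 was thus the second member with 8p and the seventh in controls, and MXI1 was the seventh with 8p and the third in controls.

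The make-up of the network transcripts shifted with these levels. The members summed to 364 ± 19.2 TPM with 8p and to 1001 ± 65.0 TPM in controls (SD, n = 3 each). MYC made up 39.2%, 37.3% and 38.7% of that sum in the 8p libraries and 80.5%, 81.3% and 79.7% in the control libraries. MXD1 made up 16.1% ± 0.933 with 8p and 1.33% ± 0.0702 in controls, and MYCL 9.97% ± 0.156 with 8p and 1.57% ± 0.172 in controls. By TPM the ratio of MYC to MXD1 was 2.40 ± 0.200 with 8p and 60.6 ± 3.30 in controls. In CPM, which is not divided by length, MYC stood at 142 and MXD1 at 125 with 8p, and at 723 and 25.3 in controls. MYC and MYCL together stood to the summed repressors MXD1, MXD3, MXD4, MXI1 and MNT at a ratio of 1.46 ± 0.0755 with 8p and 9.47 ± 0.476 in controls. The repressors summed to 121 ± 10.3 TPM with 8p and 86.8 ± 6.35 TPM in controls, so the numerator differed more than the denominator. Sums of TPM carry no TMM factors, and their scale includes the mitochondrially encoded genes, whose share differed between the groups. Differences in these sums between groups thus also hold that shift, while shares and ratios within a library do not. Without division by length the share of MYC was 25.4% with 8p and 71.0% in controls. These are transcript levels, from which the amount of each protein dimer cannot be read.

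**Figure D3:**
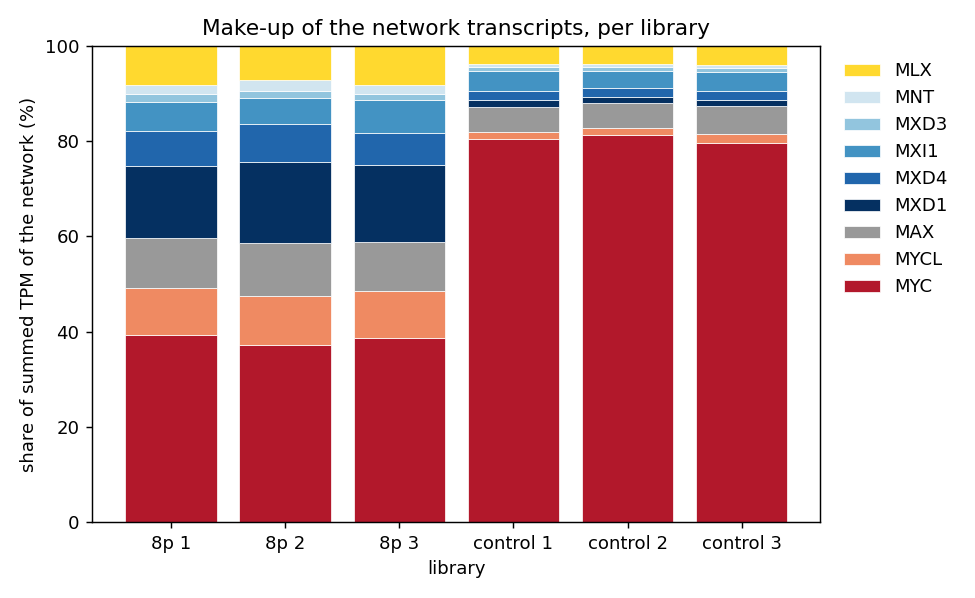
Share of each member in the summed TPM of the network, in percent, for each of the 3 8p libraries (left) and the 3 control libraries (right). MYC takes 37.3% to 39.2% of the 8p bars and 79.7% to 81.3% of the control bars, and the MXD1 segment is taller in every 8p bar.

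Promoters of the members were read from RefSeq (GRCh38.p14), from 250 bases before to 50 bases after each start, with 9 of the 10 members matched. They were searched for CACGTG, which reads the same on both strands, and for the weaker variant CACGCG, which reads CGCGTG on the other strand. CACGTG was found for MXD4, MNT and MLX, with its first base at −238, −193 and −50 from the start. CACGCG was found for MXD3 and for 1 of the 3 starts of MXI1, each with its first base at 9 after the start. CACGTG was in 7.26% and CACGCG in 11.4% of all 35116 promoters of this length. In the 14386 promoters of tested genes the shares were 9.63% and 17.4%. Of the 12 member promoters 25% had CACGTG and 16.7% had CACGCG. A match describes the letters of the window and not a bound site, and a window without a match says nothing about binding. The promoters of the 3 members with CACGTG, and those of MXD1 and MYCL, the members that rose most, follow from 5′ to 3′ on the strand of the gene, with each CACGTG in capitals.
MXD4, chr4:2262060-2262359, minus strand: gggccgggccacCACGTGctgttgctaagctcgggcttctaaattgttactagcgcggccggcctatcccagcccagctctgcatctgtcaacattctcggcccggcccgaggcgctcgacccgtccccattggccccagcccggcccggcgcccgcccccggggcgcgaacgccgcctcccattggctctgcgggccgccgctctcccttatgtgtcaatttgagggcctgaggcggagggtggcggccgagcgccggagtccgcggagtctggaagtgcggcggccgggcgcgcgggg
MNT, chr17:2401011-2401310, minus strand: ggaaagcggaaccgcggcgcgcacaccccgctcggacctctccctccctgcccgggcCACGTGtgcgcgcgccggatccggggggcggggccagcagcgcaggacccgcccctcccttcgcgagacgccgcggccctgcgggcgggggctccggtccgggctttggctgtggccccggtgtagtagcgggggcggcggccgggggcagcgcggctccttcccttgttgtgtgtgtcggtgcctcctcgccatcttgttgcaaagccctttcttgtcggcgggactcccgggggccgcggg
MLX, chr17:42566850-42567149, plus strand: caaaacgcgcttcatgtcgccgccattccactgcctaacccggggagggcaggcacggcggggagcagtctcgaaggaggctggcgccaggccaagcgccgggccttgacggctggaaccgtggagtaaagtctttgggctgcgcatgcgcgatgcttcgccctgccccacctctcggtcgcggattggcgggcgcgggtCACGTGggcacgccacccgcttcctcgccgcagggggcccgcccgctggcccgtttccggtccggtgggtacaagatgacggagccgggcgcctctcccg
MXD1, chr2:69914859-69915158, plus strand: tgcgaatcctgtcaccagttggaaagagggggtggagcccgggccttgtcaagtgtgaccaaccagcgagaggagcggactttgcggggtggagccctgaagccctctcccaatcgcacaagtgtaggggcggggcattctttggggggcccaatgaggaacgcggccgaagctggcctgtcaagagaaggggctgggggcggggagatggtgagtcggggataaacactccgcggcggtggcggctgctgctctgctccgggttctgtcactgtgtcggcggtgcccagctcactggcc
MYCL, chr1:39901868-39902167, minus strand: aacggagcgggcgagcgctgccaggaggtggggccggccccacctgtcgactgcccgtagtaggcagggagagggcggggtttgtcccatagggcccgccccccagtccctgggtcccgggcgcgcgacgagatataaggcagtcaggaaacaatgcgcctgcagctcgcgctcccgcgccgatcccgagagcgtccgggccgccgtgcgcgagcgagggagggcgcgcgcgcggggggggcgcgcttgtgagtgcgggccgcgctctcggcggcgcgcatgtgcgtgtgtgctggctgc
Of the 3 members with the printed E-box, MXD4 rose, MLX fell and MNT did not pass. The call of MLX was lost in 4 of 18 alternatives and MNT passed as higher in 3. A link between the hexamer and the direction of change was not tested. MXD1 and MYCL rose more than MXD4 and have neither hexamer in the printed window. The RefSeq start of MXD1 lies inside the span that the table gives for the gene.

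The network reaches genes on several sides, and those beside its members were described from lists of known cofactors, regulators and targets. Over all tested genes 37.9% were called higher and 36.9% lower, and the counts called in each list stand beside these shares. Of the other partners of MAX and MLX, MLXIP, which encodes the glucose sensor MondoA, stood at 179, 190 and 182 CPM with 8p and at 85.2, 89.8 and 75.3 CPM in controls. The 8p values were all above the control values, and MLXIP rose by a log2 fold change of 1.14 (edgeR adjusted p = 1.88e-09), while its partner MLX was lower. MGA, a MAX partner in a Polycomb-type repressor, stood at 82.9 ± 8.14 CPM with 8p and 58.8 ± 3.42 CPM in controls (log2 fold change 0.49, edgeR adjusted p = 8.30e-05). MLXIPL, which encodes ChREBP, was near the detection limit at 1.23 ± 0.551 CPM with 8p and 0.714 ± 0.277 CPM in controls and did not pass (edgeR adjusted p = 0.114).

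Genes of the SIN3 and histone deacetylase corepressor, which MXD proteins and MNT recruit, moved both ways. Of 16 tested, 4 were called higher and 10 lower, around a median log2 fold change of −0.58. The paralogous scaffolds differed, with SIN3B at 59.9 ± 3.23 CPM with 8p and 34.99 ± 2.33 CPM in controls (log2 fold change 0.77) and SIN3A at 80.9 ± 1.18 CPM with 8p and 107 ± 14.7 CPM in controls (−0.41). ARID4B (0.87) and ARID4A (0.83), subunits of the complex, rose as well. The deacetylase HDAC2 stood at 151 ± 9.78 CPM with 8p and 364 ± 24.8 CPM in controls (−1.27). The histone-binding subunit RBBP7 (−1.19) and SAP130 (−0.98) fell too.

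Of 16 tested cofactors that MYC uses for activation, 3 were called higher and 9 lower, around a median of −0.46. Without 8p replicate 1 or control replicate 3, 1 was called higher, and with no filter on low counts 0 were. RUVBL1 and RUVBL2, paired ATPases that bind MYC, stood at 16.2 ± 2.90 and 60.1 ± 1.61 CPM with 8p, against 134 ± 8.87 and 382 ± 15.1 CPM in controls (log2 fold changes −3.04 and −2.67). ACTL6A, an actin-related subunit of complexes that MYC recruits, fell by 2.16 on the log2 scale. TRRAP, the scaffold of acetyltransferase complexes bound by MYC, stood at 71.0 ± 4.202 CPM with 8p and 80.5 ± 9.97 CPM in controls and did not pass (−0.18, edgeR adjusted p = 0.0852). It passed without control replicate 3 (−0.30, adjusted p = 0.00360) and without 8p replicate 2 (−0.25, adjusted p = 0.0244), with the adjusted p between 0.00183 and 1 over its alternatives.

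The elongation kinase gene CDK9 rose slightly (log2 fold change 0.24, edgeR adjusted p = 0.00459). CDK9 did not pass with no filter on low counts (adjusted p = 0.255, between 3.04e-05 and 1 over its alternatives). ZBTB17, which encodes MIZ1, the partner through which MYC represses genes, had a log2 fold change of 0.25 with overlapping groups (adjusted p = 0.0481), and its call was lost in 12 of 18 alternatives, among them DESeq2 (adjusted p = 0.0811), with the adjusted p between 0.00193 and 1. The value of ZBTB17 was 0.12 without 8p replicate 1 and 0.17 without control replicate 1.

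Genes that set the stability of the MYC protein included 4 called higher and 10 called lower among 15 tested, around a median of −0.49. Without control replicate 2, or with no filter on low counts, 2 were called higher. The kinases AURKA and PLK1, which protect MYC family proteins from degradation, stood at 21.8 ± 1.198 and 20.7 ± 3.57 CPM with 8p, against 104 ± 3.35 and 191 ± 7.84 CPM in controls. Both are also genes of mitosis. CIP2A, an inhibitor of the phosphatase that destabilises MYC, fell by 2.76 on the log2 scale. FBXW7, the ubiquitin ligase subunit that marks phosphorylated MYC for degradation, stood at 20.9 ± 0.605 CPM with 8p and 16.8 ± 0.226 CPM in controls (log2 fold change 0.31, edgeR adjusted p = 0.0139). It did not pass without control replicate 1 (adjusted p = 0.0519) or control replicate 2 (adjusted p = 0.0584), with the adjusted p between 4.96e-04 and 1. The scaffold AXIN1 (1.14) and the deubiquitinase gene USP28 (0.55) rose.

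Of 13 tested transcription factors and nucleic acid binding proteins known to act on the MYC gene, 3 were called higher and 8 lower, around a median of −0.20. PRDM1, which encodes the repressor BLIMP1, stood at 50.9, 48.0 and 50.4 CPM with 8p and at 3.29, 3.46 and 2.12 CPM in controls. The groups lay far apart, a log2 fold change of 4.05 (SE 0.14, edgeR adjusted p = 1.17e-12). NOTCH1 (1.14) and STAT5A (0.58) rose too. E2F1, a cell cycle factor, stood at 5.18 ± 0.660 CPM with 8p and 45.6 ± 2.31 CPM in controls (−3.14). FUBP1 (−1.43) and PUF60 (−1.78), an activator and a repressor that act on the same element upstream of MYC, both fell.

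Around MYC on chromosome 8, 3 of the 25 other annotated genes within 1 Mb had enough counts to be tested. PVT1, a long noncoding RNA gene that begins 59.1 kb downstream of the start of MYC, stood at 32.5, 27.7 and 30.1 CPM with 8p and at 25.8, 22.9 and 24.2 CPM in controls. It was slightly higher with 8p (log2 fold change 0.31, edgeR adjusted p = 0.00989) where MYC was lower. PVT1 did not pass without 8p replicate 1 (adjusted p = 0.0775) or control replicate 2 (adjusted p = 0.0721), with the adjusted p between 2.91e-04 and 1. CCDC26, a noncoding gene whose nearer end lies 899 kb from the start of MYC, stood at 9.50 CPM with 8p and 30.0 CPM in controls (−1.66, edgeR adjusted p = 6.39e-09). The small nuclear RNA pseudogene RNU1-106P, near the detection limit, rose by 1.42. CASC11, which lies just upstream of MYC, had no count over the 8p libraries and 7 over the control libraries and was not tested. MYCBP, which encodes a MYC-binding protein on chromosome 1, fell by 1.14, and MYCBP2, a ubiquitin ligase gene, did not pass (−0.05, edgeR adjusted p = 0.546).

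Targets that MYC raises were described from a list of 57 genes, after a published hallmark set for MYC with MYC itself left out, and 56 were tested. Of these 52 fell and 4 did not pass, and the median log2 fold change was −1.94. In the edgeR fit that gave these calls no target was called higher, and the number higher at an unadjusted p under 0.05 was 0. Neither limma-voom with TMM factors nor DESeq2 with its own size factors called a target higher. In other edgeR fits 2 targets were called higher with upper quartile factors, 1 without 8p replicate 2 and 1 with protein-coding genes alone. Of all tested genes 36.9% fell. UNG, a uracil glycosylase of DNA repair, stood at 3.33, 2.64 and 3.51 CPM with 8p and at 79.2, 84.2 and 89.3 CPM in controls (−4.74). MCM4, a subunit of the replicative helicase, stood at 69.2 ± 1.77 CPM with 8p and 901 ± 20.2 CPM in controls (−3.70). NOP56, a core protein of nucleolar RNA modification, stood at 136 ± 4.77 CPM with 8p and 601 ± 21.1 CPM in controls (−2.14). The nucleolar chaperone gene NPM1 (−1.07) and the cyclin-dependent kinase gene CDK4 (−2.27) fell as well. ODC1, a polyamine enzyme gene and long-known MYC target outside the list, fell by 2.52.

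Many of these targets also carry the hexamer of the network. Promoter entries were found for 46 of the 56 tested targets, and 24 of the 46 (52.2%) had CACGTG in a window. Among 9447 tested protein-coding genes with an entry (82.1% of them) the share was 13.1%. The targets had a median log2 fold change of −2.00 with the hexamer and −1.78 without it, and 22 of 24 and 20 of 22 fell. Over all tested protein-coding genes with an entry the median was −0.16 with CACGTG and −0.07 without it, and 46.4% against 41.6% of genes fell. For the variant CACGCG the medians over these genes were −0.16 with it and −0.05 without it, and 46.2% against 41% fell. Among the targets CACGCG went the other way, with a median of −1.56 with it and −2.00 without it. There 7 of 9 and 35 of 37 targets fell. CACGTG is shared with other factors, and these shares are descriptions.

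**Figure D4:**
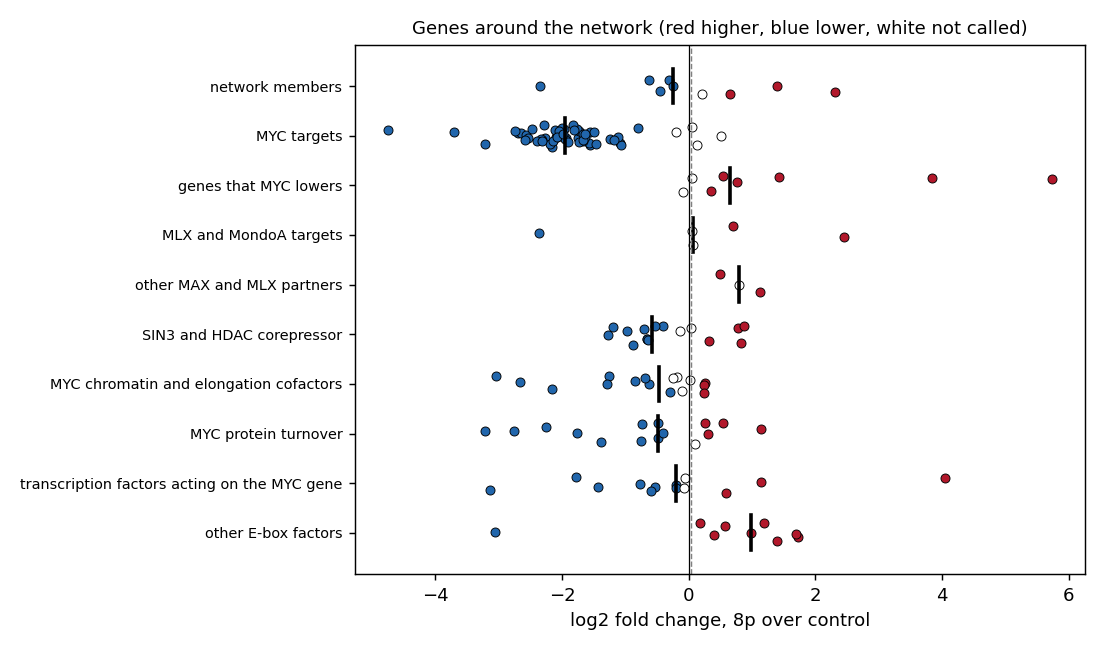
Log2 fold change of 8p over control for the tested genes of each list, with 1 point per gene, red for genes that rose, blue for genes that fell and white for genes that did not pass. Black bars mark list medians and the dashed line the median of all tested genes (0.03). The points of the MYC targets lie mostly left of 0 around a median of −1.94, with NOP2 (0.51), TMEM97 (0.14) and HK2 (0.05) right of it. NOP2 was near the detection limit, at 0.945 CPM with 8p and 0.651 CPM in controls. It shares 2550 exon bases with AC006064.6 on the same strand. The points of the genes that MYC lowers lie mostly right of 0 around a median of 0.65.

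Of 8 tested genes that MYC is known to lower, 6 rose, around a median of 0.65, where 37.9% of all tested genes rose. None was called lower by edgeR, DESeq2 or limma-voom, and 0 were lower at an unadjusted p under 0.05 in edgeR. CEBPA, a myeloid transcription factor that is also among the 11 myeloid markers, stood at 409, 490 and 415 CPM with 8p and at 161, 161 and 168 CPM in controls (log2 fold change 1.42, edgeR adjusted p = 1.63e-10). CDKN1C, an inhibitor of cyclin-dependent kinases, was rare, at 1.67 ± 0.895 CPM with 8p and 0.0999 ± 0.135 CPM in controls (3.85, edgeR adjusted p = 1.41e-04). Its log2 fold change was 5.67 without control replicate 1, which held 6 of its 7 control counts. The stress gene GADD45G had 56 counts over the 8p libraries and 1 over the control libraries, a ratio of 76.4 (exact 95% binomial interval 13.2 to 3071, for counting error only). Control replicate 2 held that count, and without it GADD45G was at least 16.9-fold higher, with 3 counts as the floor for the control group. Leaving out control replicate 1 gave a ratio of 47.9, and leaving out control replicate 3 gave 54.3. CDKN1A, which encodes the inhibitor p21 and is the best known gene of this list, stood at 67.6 ± 1.59 CPM with 8p and 71.5 ± 0.639 CPM in controls and did not pass (−0.08, edgeR adjusted p = 0.305).

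Targets of MLX and MondoA did not move together. TXNIP, an inhibitor of glucose uptake and the leading target of MondoA, stood at 128, 120 and 124 CPM with 8p and at 120, 116 and 121 CPM in controls. The groups overlapped, and it did not pass (log2 fold change 0.06, edgeR adjusted p = 0.400). It passed with upper quartile factors (0.25, adjusted p = 0.00293) and with protein-coding genes alone (adjusted p = 0.0487), with the adjusted p between 0.00293 and 1. ARRDC4, a relative of TXNIP, was low and fell to 0.493 ± 0.143 CPM with 8p, against 2.57 ± 0.114 CPM in controls (−2.36, edgeR adjusted p = 2.32e-05). PFKFB3, a regulator of glycolysis, rose by 2.46 and the zinc finger gene KLF10 by 0.70. HK2, which encodes a hexokinase and is also in the MYC target list, did not pass (0.05, edgeR adjusted p = 0.539).

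Of 9 other tested factors that bind the E-box, 8 rose and 1 fell, around a median of 0.99. DESeq2 called 7 of them higher and 1 lower. Over all tested genes 37.9% rose and 36.9% fell. TFEC (1.73) and TFE3 (1.39), of the MiT family that controls lysosomal genes, and the circadian repressor BHLHE40 (1.69) rose most. BHLHE40 stood at 74.2 ± 3.64 CPM with 8p and 23.01 ± 2.14 CPM in controls. MITF, another member of the MiT family, was low and fell to 0.179 ± 0.206 CPM with 8p, against 1.49 ± 0.126 CPM in controls (−3.06, edgeR adjusted p = 2.89e-04). Its log2 fold change was −4.44 without 8p replicate 3.

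The genes whose pattern over the 6 libraries was most like that of MYC included LRRC59, CDT1, SPAG5 and ALDH18A1. They were chosen among 7446 protein-coding genes by the smallest root mean square difference in log2 CPM, each gene centred on its mean. The difference ran from 0.0408 for LRRC59 to 0.0554 for ALDH18A1. LRRC59, an endoplasmic reticulum protein gene, stood at 63.0 CPM with 8p and 310 CPM in controls, and CDT1, a replication licensing factor gene, at 27.9 CPM with 8p and 139 CPM in controls. With 2 groups of libraries that lie apart, this likeness mainly reflects a fold change of similar size.

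Some genes named around the network share exon bases with an opposite-strand neighbour whose counts came to 10% or more of their own. They were ACTL6A, ARID4B, CDK4, RBBP7, RUVBL1, TMEM97 and TRRAP. The shares were largest for RUVBL1, with SEC61A1 at 296% of its counts, and for ACTL6A, with MRPL47 at 82%. If the counting ignored strand, reads on the shared bases could not be told apart.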

How the data were processed

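Messenger RNA libraries of 6 MOLM-13 cultures were analysed from a table of raw counts per gene that the authors deposited with each gene's symbol, position and exon length. Per the submitters' processing notes, HISAT2 2.0.5 and featureCounts 1.5.0-p3 were used, beside edgeR 3.22.5 and DESeq2 1.20.0, on build hg38, and annotation, strand setting and counting rules are not given in the sources used here. Per the labels' protocols, mRNA was enriched through poly(A) tails or through depletion of ribosomal RNA, and the method used is not specified. Gene starts and ends equalled those of GENCODE release 29 for 58724 of 58735 genes. The gene length column is an annotation value of the deposited table and was used for TPM and in no test.

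Counts were tested in R 4.3.3 with edgeR 4.0.16 (quasi-likelihood F test, TMM factors, filterByExpr, group as the only term, all 6 libraries). Standard errors were derived as the absolute log2 fold change over the square root of F. CPM uses TMM-scaled library totals. TPM was computed from counts and length over all genes. The series text calls the replicates independent and biological. Members and lists were chosen with earlier results of these data known, lists got no set test, and the target list was written from general knowledge. Named genes were all members, up to 3 called genes with the largest rise and 3 with the largest fall in each longer list, all genes of lists of 6 or fewer and a few genes fixed by name; CCDC26 and RNU1-106P were given as genes within 1 Mb of MYC. Alternatives were DESeq2 1.42.0, limma-voom (limma 3.58.1), other scalings, filters and thresholds, the replicate number as a block, subsets of genes and each library left out. The procedure was checked on simulated counts in which few genes changed. That check does not cover library scaling in data where 74.7% of tested genes passed. The depth leaves genes near 1 CPM imprecise. Results for some genes that these rules name are not reported here.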

Additional observations from a re-analysis of the deposited data

How the results depend on the processing

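The changes of MYC, MYCL and MXD1 kept their direction and passed in all 18 alternatives. Upper quartile factors left 2 members called lower in place of 5, and a required change of over 1.5-fold left 1 lower (MYC) and 2 higher (MXD1 and MYCL). That requirement also brought the genes called in the whole table to 3229 higher and 3064 lower, and the list genes called higher to 17 in place of 33, which follows from the stricter question. DESeq2 called 10030 genes and limma-voom 10380, against 10330. Upper quartile factors called 6240 genes higher and 4258 lower, so that 59.4% of calls were higher, against 50.6%. With the replicate number as a block, 5076 genes were called higher and 5014 lower, with 3 members higher and 5 lower as without it. Deviations of same-numbered libraries from their group means had correlations of −0.0432 to −0.00710. No library correlated best with its own number in the other group. Pairing by number was thus not seen, but 3 libraries per group cannot exclude it. Among named genes the block ended only the call of ZBTB17 (adjusted p = 0.0597). The share of MYC was 25.4% with 8p and 71.0% in controls on counts not divided by length, since MYC is the second shortest member. Values for genes that did not pass changed sign in 8 cases: TRRAP (0.0058), CDKN1A (0.11) and MYCBP2 (0.14) with upper quartile factors, CDKN1A (0.0036) and MYCBP2 (0.038) with protein-coding genes alone, TXNIP (−0.053) and HK2 (−0.062) with no filter on low counts, and HK2 with 1 library left out (−0.048 to 0.081, negative without control replicate 3), and the cause was not tested. Of 1078 values for 60 named genes over the alternatives, 1017 kept direction and side of the threshold.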
